A study of Mus musculus with 7 samples.

Results

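Arc, Fos, Fosb, Junb, Egr1, Egr2, Egr3, Egr4, Npas4 and Nr4a1 are genes that neurons switch on within minutes of synaptic activity. They were picked by symbol, through the Ensembl identifier of each gene, and make up 10 of the 22248 genes counted. RNA had been sequenced from synaptoneurosomes of the mouse hippocampus, a fraction of sheared nerve endings with the postsynaptic membrane still attached. AM6545 blocks the cannabinoid receptor CB1 and crosses into the brain poorly. The question was whether repeated dosing with it changes the mRNA found at hippocampal synapses. Every animal was a wild-type C57Bl/6J female. Sub-chronic AM6545 was given in 4 libraries (replicates B, D, E and F) and vehicle in 3 (replicates B, D and E). Dose, treatment length, age, time of tissue collection and how many mice went into a library are not given in the sources used here. Nothing says that the libraries came from separate mice, so p-values measure the spread between these libraries, which may be technical.

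Immediate early genes need no new protein to be transcribed. Calcium entering an active neuron drives kinases that phosphorylate CREB and the partners of SRF, factors already sitting at these promoters, and the transcripts appear quickly and decay quickly. Fos, Fosb and Junb encode subunits of the AP-1 transcription factor, Egr1 to Egr4 encode zinc finger transcription factors, Npas4 encodes a basic helix-loop-helix factor that responds closely to calcium, and Nr4a1 encodes an orphan nuclear receptor. Arc differs from the rest: its protein promotes removal of AMPA receptors from synapses, and its mRNA travels into dendrites. In the hippocampus these transcripts are widely used as a trace of recent neuronal activity.

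No difference between AM6545 and vehicle was called for any of the 10 genes. The libraries within a group spread widely, and for most of the genes largely the same libraries were high or low. Egr3 spread least and was not low in AM6545 D, though AM6545 F, AM6545 B and vehicle D were its highest libraries. All 10 passed the filter on low counts. With edgeR's quasi-likelihood test and Benjamini-Hochberg adjustment over 14654 genes, 0 of 10 had an adjusted p under 0.05, where 0.00682% of all genes did. At an unadjusted p under 0.05 there were also 0 of 10, against 14.6% of all genes (5.86% higher and 8.70% lower in AM6545). The AM6545 and vehicle libraries overlapped for all 10, while for 13.8% of all genes they did not. Log2 fold changes of AM6545 over vehicle were above 0 for 5 of the genes and below 0 for 5, against 51.4% and 48.6% of all genes, with a median of 0.0030 beside 0.0079 for all genes. In a bulk fraction, fewer particles of a kind and less RNA per particle cannot be told apart.

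Promoter sequence is shown for genes picked by a match to the core of the CREB motif, which Fosb, Junb and Nr4a1 lacked. Whether such motifs bear on how the genes varied together was not tested. RefSeq promoter sequences (GRCm38.p6) were matched for 7 of the 10 genes: Fos, Fosb, Junb, Egr2, Egr4, Npas4 and Nr4a1. Windows reaching from 250 bases before to 50 after the start site were searched on both strands for TGACGT, the core of the CREB motif, for the CArG box bound by SRF, for TGANTCA, the AP-1 motif, and for GCGNGGGCG, the EGR motif. The 250 bases before the RefSeq start site are printed in the direction of transcription. Capitals mark each match to TGACGT, in either orientation, or to the CArG box. For Npas4 and the Egr2 window shown, that start site lies inside the gene coordinates given below, and distances are counted from it.
Fos, chr12:85473640-85473889, plus strand: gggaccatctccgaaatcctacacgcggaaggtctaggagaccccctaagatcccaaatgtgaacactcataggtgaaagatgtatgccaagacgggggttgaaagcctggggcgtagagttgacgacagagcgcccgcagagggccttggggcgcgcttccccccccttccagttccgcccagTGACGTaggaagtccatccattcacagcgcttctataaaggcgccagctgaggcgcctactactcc
Npas4, chr19:4989972-4990221, minus strand: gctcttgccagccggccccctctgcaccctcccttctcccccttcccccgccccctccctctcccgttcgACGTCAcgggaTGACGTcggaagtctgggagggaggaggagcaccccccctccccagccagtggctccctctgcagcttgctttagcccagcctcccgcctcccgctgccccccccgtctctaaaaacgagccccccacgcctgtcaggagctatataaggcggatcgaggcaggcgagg
Egr4, chr6:85513590-85513839, minus strand: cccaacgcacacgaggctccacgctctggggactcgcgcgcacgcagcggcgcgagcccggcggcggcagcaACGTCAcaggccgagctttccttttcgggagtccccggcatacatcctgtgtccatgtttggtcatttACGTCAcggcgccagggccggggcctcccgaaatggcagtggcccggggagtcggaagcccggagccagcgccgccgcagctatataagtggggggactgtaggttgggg
Egr2, chr10:67537619-67537868, plus strand: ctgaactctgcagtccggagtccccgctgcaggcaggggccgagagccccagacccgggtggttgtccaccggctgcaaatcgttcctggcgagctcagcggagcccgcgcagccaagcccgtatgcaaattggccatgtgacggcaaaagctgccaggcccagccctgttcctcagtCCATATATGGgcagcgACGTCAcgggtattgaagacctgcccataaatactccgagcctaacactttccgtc

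The Fos promoter held 1 match to TGACGT, beginning 66 bases before the start site. Npas4 held 2, at 180 and 169 bases, and Egr4 held 2, at 178 and 110 bases. The Egr2 window shown held 1 at 56 bases, preceded by a CArG box at 72 bases. Egr2 has 5 start-site windows in RefSeq: 3 that overlap each other hold both motifs, 1 (from 67537316) holds a CArG box without TGACGT, and 1 (from 67535249) holds no match to any of the motifs. Among 32851 mouse promoter windows of 300 bases, 7.51% held TGACGT and 1.63% a CArG box. The full palindrome TGACGTCA, present in 1.79% of windows, was in none of the 7 genes. A match describes these letters and is not evidence of binding. GCGNGGGCG occurred in the Fosb window 50 bases before the start and in the Nr4a1 window at 60 bases, and in 5.55% of all windows. TGANTCA, found in 7.81% of all windows, did not occur in the 7 genes, and none of these motifs occurred in the Junb window.

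Values below are normalised CPM, counts scaled to a common library size by TMM, unless stated otherwise. Arc (chromosome 15, 74669083 to 74672570, minus strand, GRCm38) had the highest level of the 10. Its CPM was 332, 181, 238 and 298 in AM6545 replicates B, D, E and F, and 254, 331 and 256 in vehicle replicates B, D and E. AM6545 B and vehicle D were almost level at the top, AM6545 D was lowest, and the groups overlapped throughout. Means were 262 ± 66.6 (SD, n = 4) and 280 ± 43.7 (SD, n = 3). The log2 fold change was -0.10 (SE 0.19, 95% interval -0.50 to 0.31), with an edgeR adjusted p of 0.830. On the linear scale that interval ran from 0.705 to 1.24 times the vehicle level.

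Fos, whose protein binds DNA as a dimer with a Jun protein, lies on chromosome 12 (85473890 to 85477273, plus strand). Fos CPM was 63.2, 26.7, 37.9 and 48.4 in AM6545 B, D, E and F, and 40.0, 53.2 and 38.8 in vehicle B, D and E. Both the highest and the lowest library were AM6545 libraries, 2.37 times apart. The fitted log2 fold change was -0.00020 (SE 0.25, 95% interval -0.56 to 0.56; edgeR adjusted p 0.999), so a change of up to 1.48 times was within the interval.

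Fosb encodes FosB and, by splicing, the long-lived ΔFosB form (chromosome 7, 19302696 to 19310051, minus strand). It was the least counted of the 10, with 18.0 to 54.8 estimated counts per library. Fosb CPM was 1.56, 0.687, 1.32 and 1.65 in AM6545 B, D, E and F, and 2.21, 2.21 and 1.08 in vehicle B, D and E. Vehicle B and D stood above all AM6545 libraries, and vehicle E lay among them. Its log2 fold change of -0.52 (SE 0.33, 95% interval -1.24 to 0.20) was the lowest of the 10, with an unadjusted p of 0.143 and an edgeR adjusted p of 0.475. Without vehicle E it was -0.77, with an unadjusted p of 0.0285, a level that 25.7% of all genes reached in that fit, and an adjusted p of 0.144.

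Junb, a Jun family subunit of AP-1, lies on chromosome 8 (84974484 to 84978718, minus strand), and its exons overlap those of Prdx2 on the opposite strand. Of the 31-base words in its transcripts, 6.51% also occur in Prdx2, so reads of the pair could have been exchanged and its level is uncertain. Junb CPM was 192, 121, 114 and 161 in AM6545 B, D, E and F, and 130, 146 and 150 in vehicle B, D and E. The vehicle libraries lay close together, inside the range of the AM6545 libraries. AM6545 over vehicle gave a log2 fold change of 0.050 (SE 0.16; edgeR adjusted p 0.902).

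**Figure D1:**
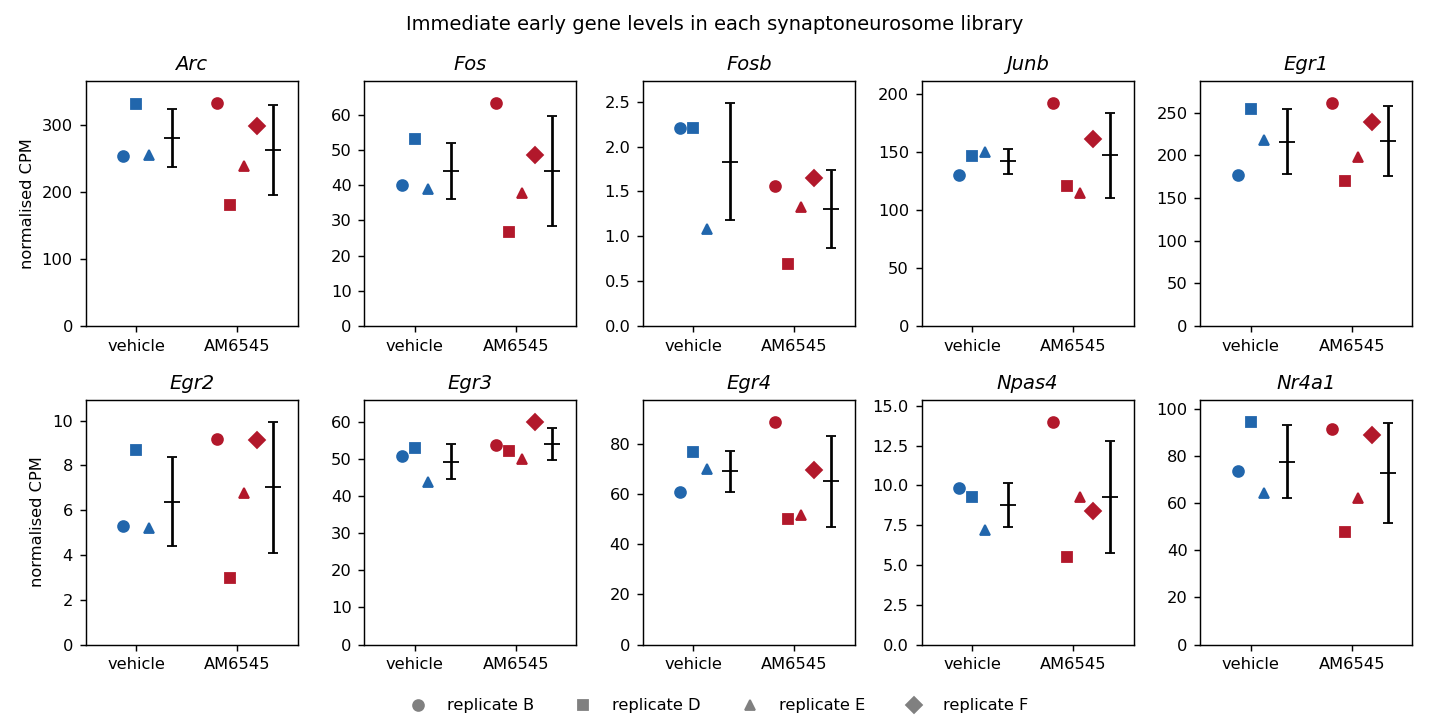
Normalised CPM of each gene in every library, with vehicle on the left of each panel and AM6545 on the right. Symbols give the replicate letter, and the bar beside each group is the mean with 1 SD (n = 3 and n = 4). The groups overlap in every panel, and AM6545 replicate D is the lowest library for 8 of the 10 genes.

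Egr1, also known as Zif268 and tied to the upkeep of long-term potentiation, is on chromosome 18 (34859823 to 34864984, plus strand). Egr1 CPM was 261, 170, 198 and 239 in AM6545 B, D, E and F, and 177, 254 and 218 in vehicle B, D and E. High and low libraries were spread over both groups, with means of 217 ± 40.8 (SD, n = 4) and 216 ± 38.5 (SD, n = 3). On the log2 scale the difference was 0.0062 (SE 0.16, 95% interval -0.34 to 0.35; edgeR adjusted p 0.989).

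Egr2, known from hindbrain patterning and myelination as Krox20, is on chromosome 10 (67535475 to 67542188, plus strand). Its CPM was 9.20, 2.98, 6.78 and 9.14 in AM6545 B, D, E and F, and 5.28, 8.69 and 5.20 in vehicle B, D and E. AM6545 D lay far below the other AM6545 libraries, which makes the highest library 3.08 times the lowest. The fitted log2 fold change was 0.13 with a wide interval of -0.66 to 0.92 (SE 0.35; edgeR adjusted p 0.883).

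Egr3, a relative of Egr1 induced downstream of the same signals, lies on chromosome 14 (70077203 to 70082614, plus strand). Egr3 CPM was 53.8, 52.4, 50.2 and 60.2 in AM6545 B, D, E and F, and 51.0, 53.1 and 44.0 in vehicle B, D and E. It was the steadiest of the 10, with 1.37 times between the highest library, AM6545 F, and the lowest, vehicle E. AM6545 D, low for the other genes, was in the middle for Egr3. For Egr3 the log2 fold change was 0.13 (SE 0.11, 95% interval -0.10 to 0.36; edgeR adjusted p 0.569), the narrowest interval of the 10, with an upper bound of 1.29 times the vehicle level.

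Egr4, a further zinc finger factor of this family, is on chromosome 6 (85511121 to 85513589, minus strand). Its CPM was 89.0, 50.3, 51.7 and 69.9 in AM6545 B, D, E and F, and 60.7, 76.8 and 69.9 in vehicle B, D and E. Again the vehicle libraries lay inside the AM6545 range. Its log2 fold change was -0.084 (SE 0.19; edgeR adjusted p 0.851).

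Npas4, which organises inhibitory input to active neurons, is on chromosome 19 (4984355 to 4990316, minus strand). Npas4 CPM was 14.0, 5.47, 9.26 and 8.39 in AM6545 B, D, E and F, and 9.86, 9.25 and 7.20 in vehicle B, D and E. AM6545 B stood above every other library and AM6545 D below, with the remaining AM6545 libraries among the vehicle ones. The difference was 0.072 on the log2 scale (SE 0.26, 95% interval -0.50 to 0.64; edgeR adjusted p 0.913).

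Nr4a1, also called Nur77, is on chromosome 15 (101254269 to 101274795, plus strand). Its CPM was 91.5, 47.7, 62.1 and 88.7 in AM6545 B, D, E and F, and 73.7, 94.4 and 64.4 in vehicle B, D and E. As for Arc, AM6545 B and vehicle D were the highest libraries and AM6545 D the lowest. The log2 fold change was -0.10 (SE 0.22, 95% interval -0.59 to 0.39; edgeR adjusted p 0.856).

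**Figure D2:**
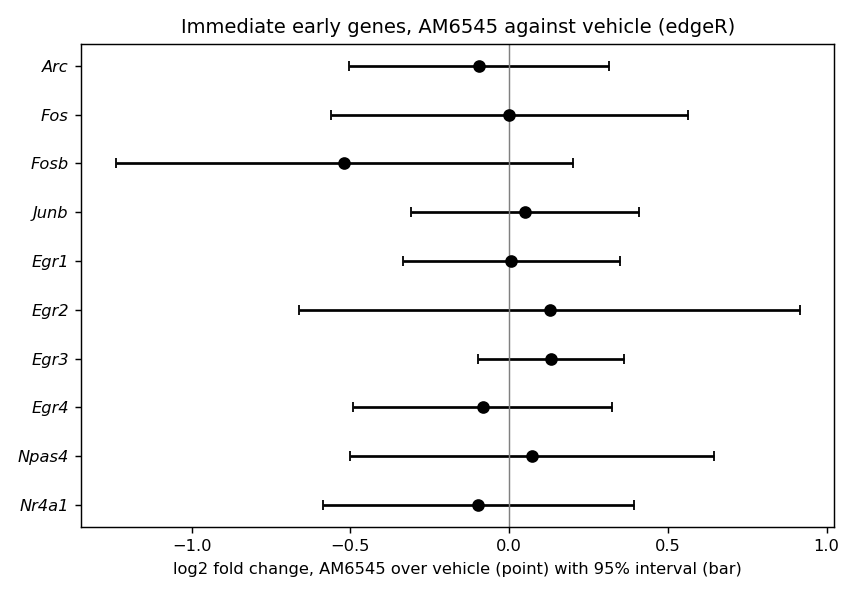
Log2 fold change of AM6545 over vehicle for each gene (point) with its 95% interval from the edgeR fit (bar), where the vertical line marks no difference. All 10 intervals cross 0, the narrowest being that of Egr3 (-0.10 to 0.36) and the widest that of Egr2 (-0.66 to 0.92).

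Libraries of 1 group varied more for most of these genes than for the typical gene. The pooled SD of log2 CPM within groups had a median of 0.36 over the 10 genes and 0.18 over all genes tested. Egr2 had the largest, 0.65, above that of 97.0% of all genes, followed by Fosb at 0.57 and Npas4 at 0.46. Egr2, Fosb and Npas4 were also the least counted of the 10 genes. This SD includes counting noise, and the percentages are over tested genes of every level. Egr1 had an SD of 0.27, above that of 74.9% of genes. Egr3 went the other way: its SD of 0.12 exceeded that of 24.6% of genes. The biological coefficient of variation in the edgeR fit had a median of 18.96% for the 10 genes and 12.4% for all.

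The spread was largely shared between the genes. Each gene's log2 CPM was centred on its mean over the 7 libraries and the 10 genes were averaged. The average was highest in AM6545 B at 0.38, followed by vehicle D at 0.27 and AM6545 F at 0.19. It was -0.016 in vehicle B, -0.13 in AM6545 E and -0.14 in vehicle E, and AM6545 D stood apart at -0.56. AM6545 B was the highest library for 7 of the 10 genes, vehicle D for 2 (Fosb and Nr4a1) and AM6545 F for Egr3. AM6545 D was the lowest for 8, the exceptions being Junb, lowest in AM6545 E, and Egr3, lowest in vehicle E. All 10 genes were above their own mean in AM6545 B and in vehicle D, and 1 of 10, Egr3, was in AM6545 D. Both ends of the order were AM6545 libraries.

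**Figure D3:**
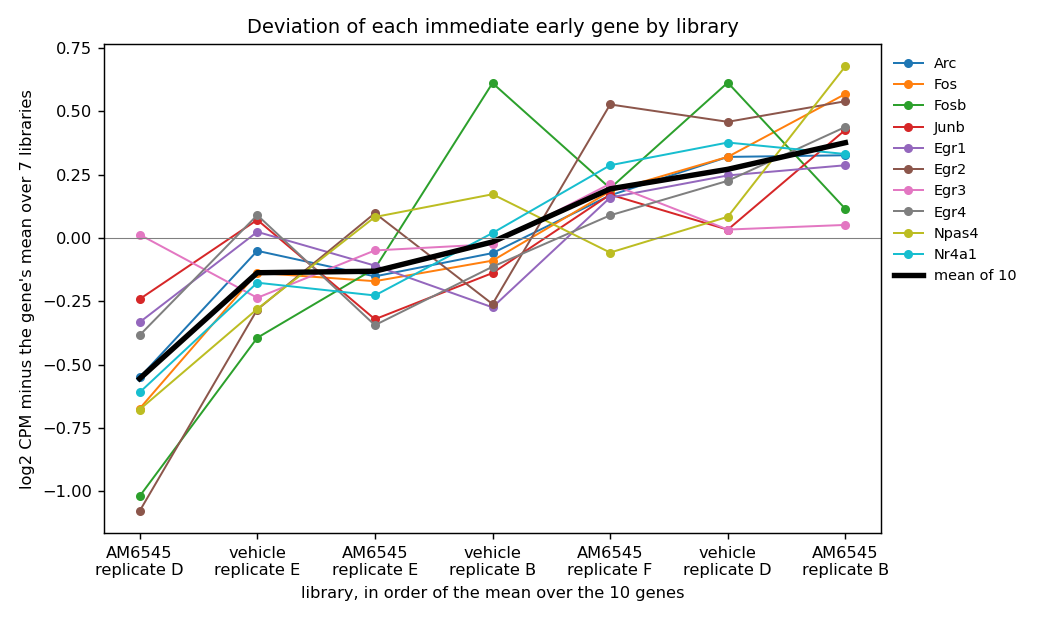
Log2 CPM of each gene minus its mean over the 7 libraries, with libraries ordered by the average of the 10 genes (thick line), which runs from -0.56 in AM6545 D to 0.38 in AM6545 B. Thin lines join the values of 1 gene and carry no time or dose order. Egr3 stays near 0 in AM6545 D, where the other 9 genes are below their mean.

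Pearson's r between pairs of the 10 genes, over the 7 libraries, had a median of 0.77 in 45 pairs and ran from 0.18 (Egr3 and Egr4) to 0.98 (Arc and Fos). It was above 0.8 in 19 pairs and above 0.5 in 34. The 36 pairs without Egr3 had a median of 0.82, and the 9 pairs with it a median of 0.30. These values describe 7 libraries that share preparation and scaling, and no test was attached. Using deviations from the group means, which removes the treatment, the median was 0.79, and removing from each library its lowess trend on gene GC content and length gave 0.71. Without AM6545 D the median was 0.62, so a part of the value came from that library, and without any other single library it lay between 0.75 and 0.83.

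Arc moved most closely with Fos and Nr4a1. Its r with Fos was 0.98 (Spearman's rho 0.96) and with Nr4a1 0.98 (rho 0.93). Leaving out AM6545 D and AM6545 B, the libraries farthest from the median, left r at 0.99 for Fos and 0.95 for Nr4a1 over 5 libraries. The r of Arc with Npas4 dropped from 0.78 to 0.061 and that with Fosb from 0.78 to 0.55, so these relations rested on the 2 libraries, wholly or in part. The r of Arc with Egr3 rose from 0.31 to 0.56. Junb moved most closely with Egr4, at r 0.94 (rho 0.82).

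Against the average of the other 9 genes, r was 0.99 for Fos, 0.98 for Arc, 0.98 for Nr4a1, 0.92 for Egr2, 0.85 for Egr1, 0.84 for Egr4, 0.80 for Npas4, 0.72 for Junb, 0.71 for Fosb and 0.36 for Egr3. Over the 14644 other genes tested, the median r with the average of the 10 was 0.0049, 0.423% of genes exceeded 0.8 and 9 exceeded 0.9. Egr3 was exceeded by 11.5% of genes. By Spearman's rho with the average of the other 9, Egr3 was at 0.64, the same as Junb.

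**Figure D4:**
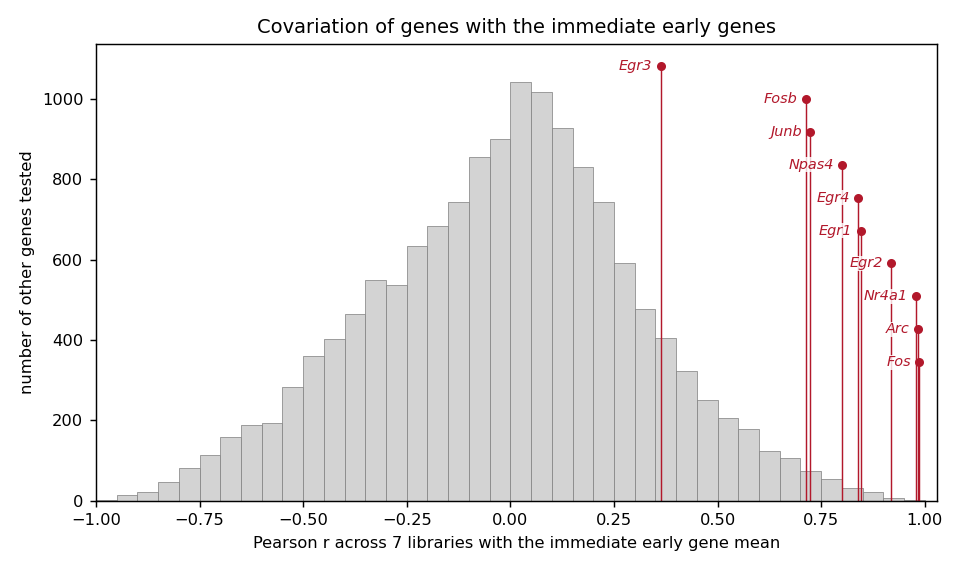
Histogram of Pearson's r over 7 libraries between each of 14644 other genes and the average of the immediate early genes (x axis), with the number of genes on the y axis. Red lines mark r of each immediate early gene with the average of the other 9, and their heights carry no value. All but 1 of the 10 lie at 0.71 or above, and Egr3 lies at 0.36.

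The 5 other genes most like the average, among 11150 with a mean CPM of at least 5, were Upf2, A930004D18Rik, Ep400, Pclo and Trib1. Upf2, a nonsense-mediated decay factor, had an r of 0.97 but spanned 19.5 to 22.8 CPM, a far smaller range than the immediate early genes. A930004D18Rik reached r 0.94 with 5.83 to 6.67 CPM. Ep400, a chromatin remodeller, also had r 0.94 (29.0 to 33.6 CPM), and Pclo, a scaffold of the presynaptic active zone, had r 0.93 (132 to 156 CPM). With the GC and length trends removed r was 0.60 for Upf2, 0.71 for A930004D18Rik, 0.30 for Ep400 and 0.39 for Pclo. Trib1, a pseudokinase gene and itself rapidly induced, had r 0.91 and ran from 3.93 CPM in AM6545 D to 6.77 in AM6545 B, the same end libraries as most of the 10 genes.

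Library facts that could bear on this order are as follows. Total estimated counts were 19174649 to 25894733 per library, and AM6545 D, with 25890900.2, was among the deepest. Mitochondrially encoded genes took 5.07% to 6.66% of the counts, but 9.83% in vehicle B. Marker lists of 8 cell classes were measured in full, with no marker at 0 in all libraries. Excitatory neuron markers summed to 3013 to 3360 CPM in AM6545 and 3318 to 3972 in vehicle, and oligodendrocyte markers to 17117 to 20216 and 16810 to 23049, so glial markers were counted beside neuronal ones. Choroid plexus markers spanned 406 to 1928 CPM in AM6545 and 1544 to 2734 in vehicle, blood markers 284 to 745 and 424 to 837, and microglial markers 842 to 935 and 865 to 1104. At an unadjusted p under 0.05 were 3 of 7 microglial, 1 of 4 excitatory neuron, 1 of 5 inhibitory neuron and 1 of 6 astrocyte markers. The other cell classes had 0, and the share of all genes was 14.6%. Over the 7 libraries r of these sums with the immediate early gene average ran from -0.56 (endothelial and mural cells) to 0.29 (inhibitory neurons). Of 4 nuclear RNAs listed, Snhg11 alone was counted, at 316 to 423 CPM, with r -0.76. The part of cell makeup or nuclear RNA in the order of the libraries was not tested.

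Levels were compared between genes per length, as TPM (length-scaled transcript counts with a common total) computed from the transcript table. Arc averaged 168 TPM over the 7 libraries, Junb 152 and Egr1 129. Egr4 (59.3), Nr4a1 (57.3), Fos (43.7) and Egr3 (26.2) formed a middle range, and Npas4 (4.89), Egr2 (4.404) and Fosb (0.781) were lowest. Ranges over libraries did not overlap between Egr1 and Egr4, between Egr3 and Npas4, or between Egr2 and Fosb. The other neighbours overlapped: Arc exceeded Junb in 6 of 7 libraries, Egr4 exceeded Nr4a1 in 3 of 7 and Npas4 exceeded Egr2 in 5 of 7.

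Arc ranked 997th of 18264 genes with a TPM above 0, or 5.46% from the top. Among mRNAs known to be carried into dendrites, Camk2a averaged 273 TPM and lay above Arc without overlap over the libraries (244 to 295 against 117 to 211 TPM). Ddn, at 240 TPM, overlapped with Arc, and Map2, at 94.1 TPM (79.5 to 108), lay below it. Dlg4 and Shank1, which encode scaffolds of the postsynaptic density, averaged 34.0 and 29.1 TPM. Junb and Egr1, which encode nuclear factors, had levels in this fraction that overlapped that of Arc. Group means per length lay within 1 SD of each other for Arc, at 169 ± 41.2 TPM under AM6545 (SD, n = 4) and 168 ± 38.3 TPM under vehicle (SD, n = 3).

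The transcript table held 36 transcripts of the 10 genes, of which 18 had a mean of at least 10 counts. By edgeR's quasi-likelihood test on 33962 transcripts, 16 of those 18 could be tested, and 0 had an unadjusted p under 0.05, against 8.39% of all transcripts (0.0177% at an adjusted p under 0.05). For Egr4, Junb, Arc and Fosb the shares say little. Egr4 and Junb were counted on 1 transcript each. Arc-201 and Arc-202 differ in length by 1 base and share all but 30 and 29 of their 31-base words; their shares differed by 1.005 percentage points between groups (exact permutation p 0.114, adjusted 0.268) and are among the 15 shares compared below. Fosb-201 took 100% of the gene's counts in some libraries and 0% in others at no more than 54.8 counts. The Fosb split is therefore no readout of ΔFosB here.

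Of 15 transcript shares compared, 3 did not overlap between the groups, those of Egr1-201, its complement Egr1-202 and Fos-202, where the same held for 8.65% of the transcript shares of all genes under the same count minimums. Egr1-201, the longer model (4484 bases against 3036 for Egr1-202), took 14.5%, 15.4%, 12.3% and 15.7% of the Egr1 counts in AM6545 B, D, E and F, and 16.7%, 19.7% and 18.0% in vehicle B, D and E. All 3 vehicle libraries were above all 4 AM6545 libraries. Mean shares were 14.5% ± 1.54 (SD, n = 4) and 18.1% ± 1.53 (SD, n = 3). The two-sided exact permutation p was 0.0286, the smallest that 35 splits allow, and 0.143 after Benjamini-Hochberg adjustment over 15 transcript shares, so the difference did not pass. Of the 31-base words of Egr1-202, 99.1% also occur in Egr1-201, which leaves Egr1-202 with 28 of its own. How reads shared by both models were divided between them was not tested. By its counts Egr1-201 differed by -0.32 on the log2 scale (SE 0.24; edgeR adjusted p 0.755).

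Egr3 was counted mostly on Egr3-202, a model annotated as a retained intron. Its share was 78.6%, 82.4%, 83.5% and 83.3% in AM6545 B, D, E and F, and 94.9%, 79.6% and 89.0% in vehicle B, D and E. The protein-coding Egr3-204 took most of the rest, 15.8% to 20.8% in AM6545 and 4.85% to 19.9% in vehicle. The groups overlapped (exact permutation p 0.2, adjusted 0.3), and 94.3% of the 31-base words of Egr3-202 also occur in Egr3-204. Egr2-203 was listed at 0 in the 4 AM6545 libraries and in vehicle B, and took 22.2% and 45.3% of Egr2 counts in vehicle D and E (exact permutation p 0.143, adjusted 0.268). Fos-202 took 3.81%, 3.60%, 3.50% and 3.51% of Fos counts in AM6545 B, D, E and F, and 2.30%, 3.02% and 0% in vehicle B, D and E. Its exact permutation p was 0.0286, adjusted to 0.143, and every 31-base word of Fos-202 also occurs in another Fos transcript.

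**Figure D5:**
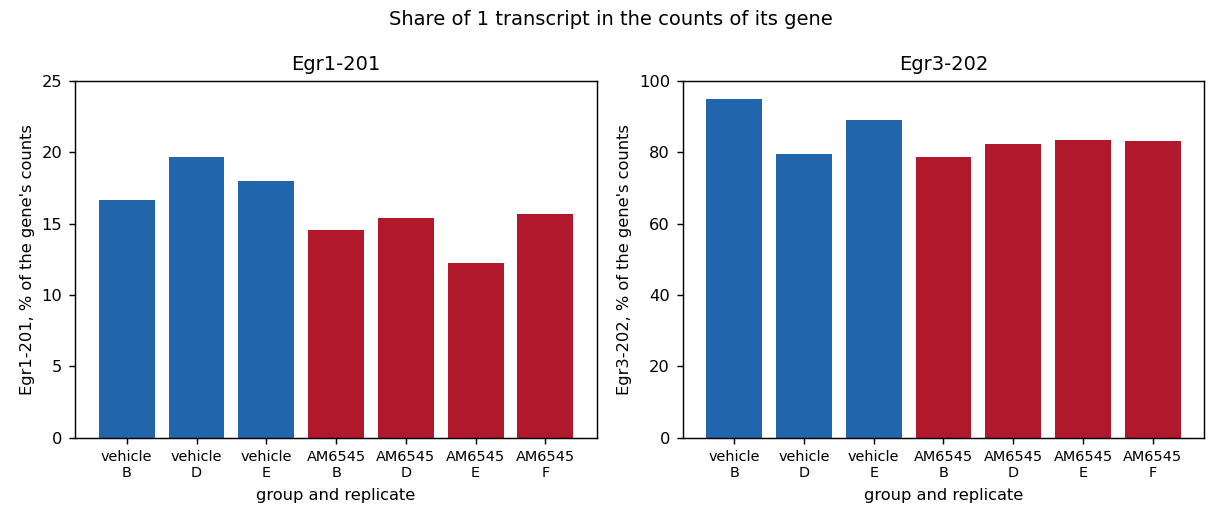
Share of Egr1-201 in Egr1 counts (left, y axis to 25%) and of Egr3-202 in Egr3 counts (right, y axis to 100%), 1 bar per library. Egr1-201 shares are 12.3% to 15.7% in AM6545 and 16.7% to 19.7% in vehicle, while Egr3-202 shares overlap between the groups.

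The genes around this response were read from 5 lists, and 0 genes of any list had an adjusted p under 0.05 by edgeR. Other rapidly induced genes were even: 12 of 24 tested were higher and 12 lower in AM6545, and the median log2 fold change was -0.016. At an unadjusted p under 0.05 there were 0 of 24, against 14.6% of all genes. The 2 with the smallest p among the higher ones were Fbxo33 (0.21, SE 0.10) and Btg2 (0.20, SE 0.12), and among the lower ones Ier5 (-0.30, SE 0.14) and Gadd45g (-0.22, SE 0.11). With each library's GC and length trends removed Fbxo33 was at 0.039, Btg2 at 0.10, Ier5 at -0.35 and Gadd45g at 0.088. Fbxo33 encodes an F-box protein and Btg2 an antiproliferative cofactor. Maff of this list was too low to be tested. Groups did not overlap for 2 of the 24, against 13.8% of all genes. Over the libraries, r of these 24 genes with the immediate early gene average had a median of 0.33 and ran from -0.41 for Klf4 to 0.91 for Trib1, with 2 genes, Trib1 and the phosphatase gene Dusp1 (0.87), above 0.8. In the lists described below the median r was 0.19 for delayed effectors, 0.17 for upstream signalling and 0.19 for partners and corepressors. It was -0.021 for genes tied to Arc, and 1 upstream signalling gene also exceeded 0.8.

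Of 19 delayed effector genes, 11 were higher and 8 lower (median log2 fold change 0.072). The groups did not overlap for 1 of them, against 13.8% of all genes. At an unadjusted p under 0.05 were 0 higher and 1 lower, against 5.86% and 8.70% of all genes. The lower one was Cdkn1a, the cell cycle inhibitor p21, at 10.3, 6.78, 7.30 and 7.34 CPM in AM6545 B, D, E and F and 10.05, 10.04 and 11.6 in vehicle B, D and E. AM6545 B lay among the vehicle libraries, and the log2 fold change was -0.42 (SE 0.16; edgeR adjusted p 0.271). Pcsk1, a prohormone convertase gene, had a log2 fold change of 0.27 (SE 0.15; 0.095 with the trends removed), Tiparp 0.26 (SE 0.15; 0.052 with the trends removed) and Gpr3, which encodes a constitutively active receptor, -0.24 (SE 0.13).

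Upstream signalling genes were 12 higher and 13 lower of 25 tested (median log2 fold change -0.062). At an unadjusted p under 0.05 were 1 higher and 1 lower, against 5.86% and 8.70% of all genes. Rps6ka5 encodes MSK1, a kinase of CREB and histone H3. Its CPM was 15.1, 14.9, 14.1 and 14.9 in AM6545 B, D, E and F and 10.5, 12.96 and 12.1 in vehicle B, D and E, without overlap, and its log2 fold change was 0.31 (SE 0.11; edgeR adjusted p 0.263). Hdac4, a histone deacetylase gene, was at -0.24 (SE 0.11; adjusted p 0.338), Map2k2, which encodes the ERK kinase MEK2, at -0.20 (SE 0.10) and the kinase gene Camkk1 at 0.25 (SE 0.14). The groups did not overlap for 5 of the 25, where they did not for 13.8% of all genes. With each library's GC and length trends removed Map2k2 turned to 0.021, Hdac4 was at -0.13, Rps6ka5 at 0.21 and Camkk1 at 0.23.

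Partner and corepressor genes were 4 higher and 5 lower of 9 tested (median -0.00076). Again 1 higher and 1 lower had an unadjusted p under 0.05, against 5.86% and 8.70% of all genes. Nab1, a corepressor of EGR proteins, was at 0.31 on the log2 scale (SE 0.14; edgeR adjusted p 0.322) and Jund, a Jun partner in AP-1, -0.29 (SE 0.12; adjusted p 0.308). With the GC and length trends removed Jund turned to 0.089 and Nab1 was at 0.15. Arnt, whose protein family dimerises with Npas4, was at 0.24 (SE 0.12), or 0.11 under the same correction. Jdp2, a repressor of AP-1, was at -0.12 (SE 0.10), turning to 0.017 under that correction. The groups did not overlap for 1 of the 9, against 13.8% of all genes. Fosl1 was below the filter.

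Of 12 genes that carry Arc mRNA or work with its protein, 8 were higher and 4 lower (median log2 fold change 0.088). At an unadjusted p under 0.05 were 1 higher and 2 lower gene, beside 5.86% and 8.70% of all genes. The groups did not overlap for 2 of the 12, against 13.8% of all genes. Fmr1 encodes FMRP, an RNA-binding protein of dendritic mRNAs. Its CPM was 51.6, 53.1, 50.8 and 44.6 in AM6545 B, D, E and F and 27.5, 37.4 and 42.3 in vehicle B, D and E. All AM6545 libraries were above all vehicle libraries, narrowly for vehicle E, and the log2 fold change was 0.49 (SE 0.14; edgeR adjusted p 0.212), or 0.26 (adjusted p 0.733) with the GC and length trends removed. Cacng2 encodes stargazin, an auxiliary subunit of AMPA receptors. Its CPM was 24.3, 26.7, 27.6 and 28.0 in AM6545 B, D, E and F and 50.7, 37.1 and 29.7 in vehicle B, D and E, lower in all 4 AM6545 libraries, and the difference was -0.56 on the log2 scale (SE 0.15; adjusted p 0.205). Purb, which encodes a nucleic acid binding protein of transport granules, was at -0.39 (SE 0.13; adjusted p 0.256), and Stau2, a Staufen gene, at 0.21 (SE 0.10), or 0.027 with those trends removed. Without vehicle E, 944 genes had an adjusted p under 0.05, or 6.38% of those tested, among them Fmr1 (adjusted p 0.0255), Cacng2 (0.0214), Purb (0.0375) and Jund (0.032), and 0 of the 10 immediate early genes. Without vehicle B, 0 genes had one (6.46% had an unadjusted p under 0.05), and the log2 fold changes were 0.33 for Fmr1 (adjusted p 0.644), -0.33 for Cacng2 (0.700), -0.29 for Purb (0.784) and -0.19 for Jund (0.828). With the GC and length trends removed, 6.72% of all genes had an unadjusted p under 0.05, and 14 of the 20 genes named from the 5 lists moved toward or past 0 by more than 1.5 times, 4 of them changing sign. The rest included Cacng2 at -0.55, Purb at -0.38, Cdkn1a at -0.32 and Gpr3 at -0.18 under that correction. The edgeR adjusted p was then 0.728 for Cacng2 and for Purb.

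Limits apply to all of these comparisons. In limma-voom with quality weights the median over the 10 genes was -0.39, and Fosb (-1.01), Arc (-0.45) and Nr4a1 (-0.50) had unadjusted p-values under 0.05, as did 24.1% of all genes in that fit; their adjusted p-values were 0.0963, 0.173 and 0.183. That fit gave its largest weights to AM6545 D (2.98) and vehicle D (2.57), the lowest and the second highest library for these genes, and weights of 0.365 to 1.25 to the rest.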

How the data were processed

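Hippocampal synaptoneurosome RNA was sequenced in 7 libraries, 4 AM6545 and 3 vehicle. Per the labels' protocols, the RNA came off RNeasy columns and went into SMARTer Ultra Low Input libraries. Salmon 1.5.2 and mm10 are named in the submitters' processing notes, without roles. The deposited values are estimated counts per gene and per transcript, of which 83.5% (genes, values above 0) are fractional. Strand use is not given in the sources used here.

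Counts were rounded and tested with edgeR 4.0.16 (limma 3.58.1, R 4.3.3): TMM scaling, filterByExpr, a robust quasi-likelihood fit, no covariates, and Benjamini-Hochberg adjustment over all features at a threshold of 0.05. The standard error is the absolute log2 fold change over the square root of F. Transcript shares were compared by two-sided exact permutation tests. TPM used GENCODE M21 transcript lengths. Symbols, coordinates (GRCm38) and transcript models are from that release, which held 22148 of 22248 gene identifiers; the deposited identifiers carry later versions, so models may differ. The code was tested on simulated data. Alternatives, including DESeq2 1.42.0 and leaving out each library, are in the closing section; those on the pairwise correlations were added after seeing the data.

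The members and lists were chosen with earlier results of these data known. Besides the 10 genes, the rule named from each of 5 lists the 2 higher and 2 lower genes of smallest p, transcripts averaging at least 10 counts, the 5 genes most like the average of the 10 (mean CPM at least 5), and dendritic mRNAs for level only. Dusp1 and Klf4 lie outside it and were chosen after their values were seen.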

Additional observations from a re-analysis of the deposited data

Results flagged for a closer look

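In 48 groups of 4 AM6545 libraries, over the CPM of named genes and the shares of transcripts, 2 held a library far from the other 3 by Dixon's criterion, where chance gives 2.4. Btg2 was at 37.9 CPM in AM6545 replicate D and between 45.9 and 46.4 in the other AM6545 libraries. Cdkn1a was at 10.3 CPM in AM6545 replicate B and between 6.78 and 7.34 in the other AM6545 libraries. Most immediate early genes were also lowest in AM6545 D and highest in AM6545 B. With 2 flags where chance gives 2.4, no link is drawn from this.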

How the results depend on the processing

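Of the 10 immediate early genes, 0 had an adjusted p under 0.05 in any alternative that gave one; Fosb got none from DESeq2 (log2 fold change -0.52, unadjusted p 0.163) and, under the 50-count minimum, no test. Genes past the threshold, 1 as reported, numbered 205 with DESeq2, 118 with limma-voom, 2 with a mean of at least 50 counts, 2 without robust estimation and 0 with the GC and length correction, and 0 to 944 when each library was left out. Transcripts past the threshold, 6 as reported, numbered 431 with DESeq2, 10 with a mean of at least 50 counts and 0 with the replicate block, and 1 to 14 when each library was left out. Immediate early genes at an unadjusted p under 0.05, 0 as reported, numbered 3 with limma-voom and 0 to 1 without each library in turn. In limma-voom 24.1% of all genes had such a p, and 25.7% without vehicle E, the fit that gave the 1. The median log2 fold change of the immediate early genes was -0.39 with limma-voom and -0.22 to 0.12 without each library. The median pairwise r was 0.62 to 0.83 without each library.

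The labels do not say what the replicate letters mark. Deviations of same-lettered libraries from their group means correlated over genes at -0.24 (B), -0.12 (D) and -0.16 (E). Libraries of different letters were not set beside these, so the values cannot show whether the letters pair the libraries. The main fit did not pair them. With the replicate block 1 gene passed the threshold, as without it. The block turned the log2 fold changes of Junb (-0.035), Egr1 (-0.052) and Egr2 (-0.090) below 0. The block with the GC and length correction gave Egr1 -0.088, Egr2 -0.16, Egr3 -0.0051, Egr4 0.20, Gadd45g 0.11, Map2k2 0.032 and Jund 0.10.

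Further log2 fold changes changed sign. With limma-voom they were Junb -0.093, Egr1 -0.27, Egr2 -0.67, Npas4 -0.33 and Tiparp -0.036. The GC and length correction gave Egr1 -0.029, Egr4 0.25, Gadd45g 0.088, Map2k2 0.021, Jund 0.089 and Jdp2 0.017. Fos was 0.024 with total counts and 0.0068 without a low-count filter, and Egr1 was -0.0018 with upper-quartile scaling and -0.0028 with a mean of at least 50 counts. Leaving out each library in turn gave -0.23 to 0.047 for Arc, -0.23 to 0.18 for Fos, -0.11 to 0.15 for Junb, -0.12 to 0.14 for Egr1, -0.035 to 0.42 for Egr2, -0.27 to 0.022 for Egr4, -0.20 to 0.26 for Npas4 and -0.23 to 0.071 for Nr4a1. Fosb was below 0 in each alternative that tested it, at -1.01 to -0.30 in the fitted ones and with a mean difference of -0.29 in log2(CPM + 1) in the exact permutation test. The cause of these changes was not tested. Depth was lowest for Fosb, with 18.0 to 54.8 counts per library, and the other genes had at least 78.2.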
